A study of Mus musculus with 10 samples.

Results

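The BCL2 family decides whether a cell under stress survives. The 10 members described here were Bcl2, Bcl2l1, Mcl1, Bcl2l2, Bcl2l11, Bid, Bad, Bak1, Bmf and Pmaip1, taken by gene symbol from a table of 24544 genes. Each symbol matched 1 row. The libraries came from long-term hematopoietic stem cells, the rare marrow cells that sustain blood formation, of Hoxb5-mCherry mice, in which a fluorescent protein reports Hoxb5. The mice were 2 to 3 months old. All cells were sorted as Hoxb5+, cKIT+, SCA1+ and CD150+ and as lacking lineage markers, CD48, FLK2 and CD34. One group of 5 libraries was also NEO1+ and the other group of 5 was NEO1-, NEO1 being the surface receptor neogenin-1. The series asks whether NEO1 separates myeloid-biased from balanced stem cells. Each library held RNA of 250 to 500 cells from 2 pooled mice, amplified by 18 cycles of PCR without molecular identifiers, so that counting intervals and floors cover counting error only. The labels do not say that the libraries came from separate animals, and p-values measure the spread between these libraries.

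In healthy cells the guardians BCL2, BCL-XL (from Bcl2l1), MCL1 and BCL-W (from Bcl2l2) hold the effectors BAX and BAK (from Bak1) in check at the mitochondrial outer membrane. BH3-only proteins bind guardians or effectors and tip the cell toward permeabilised mitochondria, release of cytochrome c and caspase activation. Among the members these are BIM (from Bcl2l11), BID, BAD, BMF and NOXA (from Pmaip1). Blood stem cells are known to need MCL1 to survive, BCL-XL keeps red cell precursors and platelets alive, and forced BCL2 enlarges the stem cell pool. These statements are background and not results of the libraries described here.

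Library totals ran from 21.2 to 38.9 M counts. The ribosomal RNA gene Rn45s took 27.9% to 37.7% of them in NEO1+ libraries and 30.7% to 42.4% in NEO1-, where libraries 1 to 3 had the highest shares (40.5% to 42.4%) and the fewest genes detected. With Rn45s removed, 0 genes were called, as with it, and the members' fold changes kept their signs. Levels are given as CPM, the count per M of TMM-scaled library size, and a count of 0 allowed a level of up to 0.0699 to 0.144 CPM (3 counts). All 10 stem cell markers looked up were present, with summed levels of 2014 to 2269 CPM across NEO1+ libraries and 1948 to 2398 CPM across NEO1- ones; Hoxb5 itself had 0 counts in NEO1- library 3. The transcript of the sorting marker, Neo1, was at 48.6 to 64.8 CPM in 4 NEO1+ libraries and at 12.5 CPM in NEO1+ library 4, against 4.56 to 18.9 CPM in NEO1- libraries. The library labelled NEO1+ 4 thus lay within the NEO1- range of this transcript. The log2 fold change of Neo1 was 2.16 (SE 0.47; edgeR p 0.000447, adjusted 0.248), so the sorting marker itself did not pass. A gene that did not pass therefore cannot be read as unchanged. NEO1+ libraries 1 and 3 and NEO1- library 3 held red cell lineage markers at a summed 334, 376 and 218 CPM, against 9.74 to 62.5 CPM in the others. Granulocyte and monocyte markers summed to 2231, 3871 and 3063 CPM in the same libraries and to 382 to 1532 CPM in the others. Different genes made up these 3 high sums. Mpo was at 238, 724 and 1590 CPM, S100a9 at 351, 609 and 4.20 CPM and Ltf at 263, 490 and 0 CPM, in the same order. Proliferation markers (16 genes) summed to 1053 to 1545 CPM across NEO1+ libraries and 624 to 970 CPM across NEO1- ones, without overlap. All 16 had a higher fitted level in NEO1+, and 0 passed. An unadjusted edgeR p under 0.05 was reached by 11 of them, beside 6.60% of all genes tested. Markers of B cells summed to 34.1 to 50.3 CPM in NEO1+ libraries, against 25.0 to 60.9 CPM in NEO1-. Nearly all of this was Cd79b, while Pax5 and Ms4a1 were at 0 counts throughout. Markers of T and NK cells summed to 26.0 to 47.2 CPM in NEO1+ libraries, against 12.5 to 52.7 CPM in NEO1-. Here Nkg7 (up to 49.7 CPM) and Klrb1c (up to 32.2 CPM) carried most of the sum, and Cd3e and Gzma were at 0 counts throughout. In bulk RNA, fewer cells of a type and less RNA per cell cannot be told apart.

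Levels of different genes were compared per kilobase of merged exon. Mcl1 stood far above the rest, at 116 ± 27.8 CPM per kb (SD over 10 libraries), and was the highest member in 10 of 10 libraries. Its level exceeded that of 98.2% of the 12034 tested genes with a known length. A middle tier followed, with Bcl2l1 at 14.8 ± 5.92, Bid at 13.0 ± 3.88, Bad at 11.3 ± 2.97 and Bcl2 at 8.59 ± 2.19 CPM per kb, each above 62.7% to 76.2% of tested genes. Neighbours in this tier overlapped: Bcl2l1 lay above Bid in 7 of 10 libraries, Bid above Bad in 8, and Bad above Bcl2 in 8. The lowest tier held Bcl2l2 at 0.737 ± 0.667, Bcl2l11 at 0.696 ± 0.444, Pmaip1 at 0.536 ± 1.09, Bak1 at 0.494 ± 0.396 and Bmf at 0.179 ± 0.282 CPM per kb, and these did not differ from their neighbours beyond their spread. Bcl2 lay above Bcl2l2, the next in order, in 10 of 10 libraries.

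**Figure D1:**
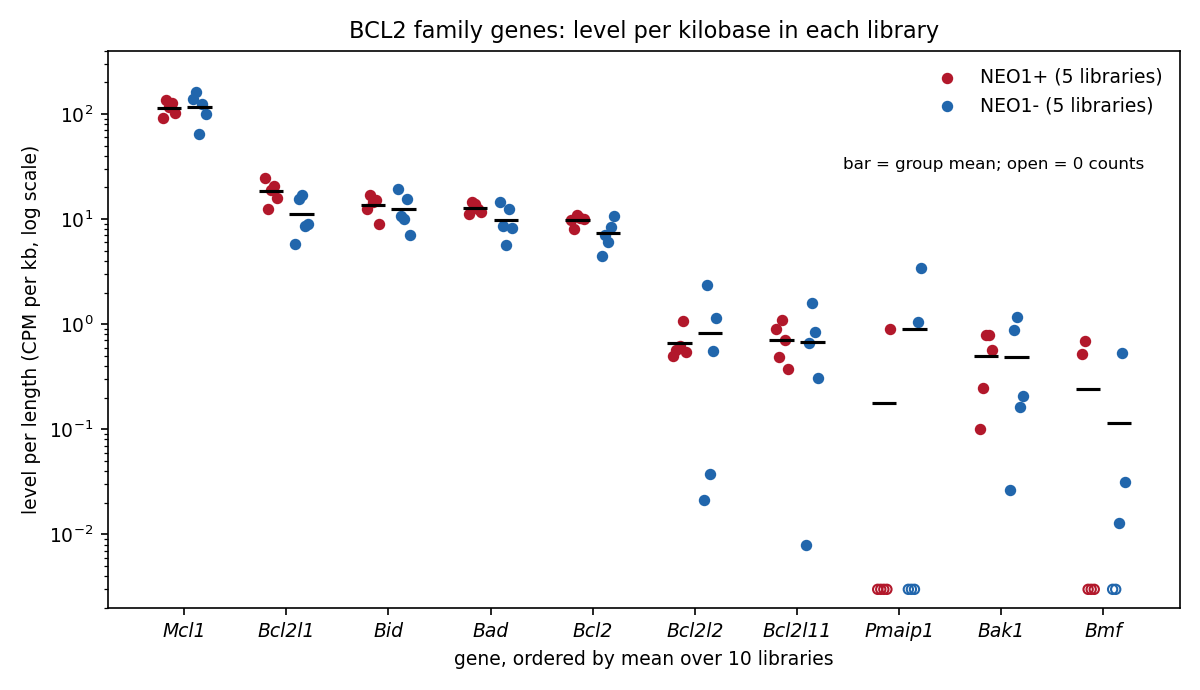
Level per length (CPM per kb of merged exon, log axis) of the 10 BCL2 family genes in each of 5 NEO1+ (red) and 5 NEO1- (blue) libraries; bars are group means and open symbols at the bottom stand for 0 counts. Mcl1 lies above all other members in every library, and Bcl2l2, Bcl2l11, Pmaip1, Bak1 and Bmf form the lowest tier.

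The 4 guardians together made up 83.7 ± 0.98% of the summed level per kb of the 10 members in the NEO1+ group and 84.5 ± 3.66% in the NEO1- group (SD, n = 5 each). Libraries ranged from 82.8% to 85.0% in NEO1+ and from 81.3% to 90.1% in NEO1-, so the narrow NEO1+ range lay within that of NEO1-. The 5 BH3-only genes made up 15.96 ± 1.06% and 15.1 ± 3.70%, and Bak1, the effector among the members, made up 0.29% and 0.36%. Mcl1 alone was 66.5 ± 4.11% of the sum in NEO1+ and 71.7 ± 6.58% in NEO1- libraries. With the longest transcript as length, the guardian share was 78.9% and 79.6% and the order of the 5 upper members was the same. All these shares hold for the 10 members only. The effector gene Bax, at 30.6 CPM per kb, and the BH3-only gene Bbc3, at 8.52 CPM per kb, are not members. Counting them would lower the guardian share.

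Between the groups, 0 of the 8 members that passed the filter on low counts reached an adjusted p of 0.05 in edgeR, where 0% of all 12203 genes tested did. Bmf and Pmaip1 did not pass the filter. One member, Bcl2l1, had an unadjusted p under 0.05, beside a background of 6.60% of all genes tested. DESeq2, which assesses all 10 members, also called 0 of them, against 1.0% of the 14606 genes it assessed. The groups overlapped in CPM for 10 of 10 members, whereas they did not overlap for 2.48% of all genes tested. The median log2 fold change (NEO1+ over NEO1-) was 0.09 over the 8 members and 0.01 over all genes tested.

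Bcl2l1 lies at chr2:152780668-152831728 on the minus strand (mm10) and gives rise to the long guardian BCL-XL and, by splicing, to a short form that promotes death; gene counts do not separate them. Across NEO1+ libraries 1 to 5 it stood at 113, 56.9, 85.9, 95.5 and 73.5 CPM, while the NEO1- libraries, in the same order, held 26.4, 71.6, 77.6, 39.4 and 40.9 CPM. NEO1- libraries 2 and 3 thus reached into the NEO1+ range, and the other 3 lay below every NEO1+ library. The fitted level was 1.66-fold higher in NEO1+ (95% interval 1.08 to 2.55; log2 fold change 0.73, SE 0.29; edgeR p 0.0243, adjusted 0.633). This was the largest difference among the tested members, and it did not pass.

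The direction for Bcl2l1 was the same in 21 of 21 alternative analyses, with log2 fold changes of 0.57 to 0.94 and adjusted p values of 0.0576 to 0.9999. The alternatives reuse the same libraries and are not independent, and Bad also kept its direction in 21 of 21. Without the library labelled NEO1+ 4, whose Neo1 level was low, the log2 fold change of Bcl2l1 was 0.69 (unadjusted edgeR p 0.0504). Leaving out NEO1+ library 1, NEO1- library 4 or NEO1- library 5 gave unadjusted edgeR p values of 0.0687, 0.0582 and 0.0557. Red cell and megakaryocyte markers are given here beside Bcl2l1. Of the 6 red cell markers tested, 6 had a higher fitted level in NEO1+ and 0 passed; Hba-a2, Hbb-bs and Hbb-bt were at 0 counts in all libraries. Of the 3 libraries rich in red cell markers, NEO1+ library 1 and NEO1- library 3 held the highest Bcl2l1 level of their group (113 and 77.6 CPM). NEO1+ library 3, at 85.9 CPM, was the median of its group. Without the 3 libraries, an alternative chosen after seeing the data, the log2 fold change of Bcl2l1 was 0.76 (unadjusted edgeR p 0.0464, adjusted 0.9999). Megakaryocyte and platelet markers summed to 212 to 263 CPM across NEO1+ libraries and 114 to 193 CPM across NEO1- ones, without overlap. Vwf (71.8 to 137 against 41.9 to 75.9 CPM) and Selp (26.3 to 43.8 against 4.41 to 13.2 CPM) carried most of this difference. Of the 7 markers tested, 4 had a higher and 3 a lower fitted level, and 0 passed. An unadjusted edgeR p under 0.05 was reached by 3, all higher, beside 6.60% of all genes tested. Gp6 was at 0 counts throughout. The part of the red cell markers in the Bcl2l1 difference, and that of the megakaryocyte, platelet and proliferation markers, was not tested.

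Bcl2 lies at chr1:106538178-106714274 on the minus strand and encodes the founding guardian of the family. It was at 90.5, 73.2, 100.1, 94.6 and 92.8 CPM across NEO1+ libraries 1 to 5, and the NEO1- libraries, in the same order, stood at 40.4, 64.4, 56.0, 77.1 and 97.7 CPM. The NEO1+ libraries kept to a narrow band at the upper end, and NEO1- libraries 4 and 5 lay inside it. The fitted ratio was 1.35-fold (95% interval 0.98 to 1.85; log2 fold change 0.43, SE 0.21; edgeR p 0.0645, adjusted 0.791). The number of genes detected ran from 12800 to 13808 in NEO1+ and from 11477 to 13147 in NEO1- libraries, and with that number as a covariate the log2 fold change of Bcl2 was -0.01 (edgeR adjusted p 0.9998). In the other 20 alternatives it was positive, and over all 21 the adjusted p was 0.149 to 0.9999. The D630008O14Rik antisense gene shares 6.09% of the exonic bases of Bcl2, and whether strand was used in counting is not given in the sources used here.

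Mcl1, at chr3:95658788-95663176 on the plus strand, encodes a short-lived guardian that binds BIM, NOXA and BAK. It was at 314.5, 469, 395, 431 and 347 CPM across NEO1+ libraries 1 to 5, and the NEO1- libraries, in the same order, stood at 469.9, 557, 221, 424 and 343 CPM. The NEO1+ libraries lay inside the NEO1- range, whose ends were library 3 at the bottom and library 2 at the top. The ratio was 0.97 (95% interval 0.72 to 1.31; log2 fold change -0.04, SE 0.20; edgeR adjusted p 0.998). It was the most precisely measured ratio of the members, and changes beyond 1.31-fold up or to 0.72-fold lay outside the interval. The sign turned in 7 of 21 alternatives, all within -0.20 and 0.10 on the log2 scale.

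Bcl2l2, at chr14:54883377-54888234 on the plus strand, encodes BCL-W, the lowest of the 4 guardian members per length. It was at 2.21, 2.53, 2.75, 4.75 and 2.44 CPM across NEO1+ libraries 1 to 5, and the NEO1- libraries, in the same order, stood at 0.0955, 10.4, 0.169, 2.46 and 5.06 CPM. The NEO1- libraries thus held both the highest value and 2 values from 3 and 5 counts. The log2 fold change was -0.31 (SE 1.18, 95% interval -2.86 to 2.24; edgeR adjusted p 0.998), and it lay between -1.35 and 1.32 over the 21 alternatives, with the opposite sign in 5 of them. The read-through gene Gm20521 shares 13.3% of the exonic bases of Bcl2l2 on the same strand, so the counts of Bcl2l2 are uncertain.

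Among the BH3-only genes Bid and Bad were well covered. Bid, at chr6:120891930-120916853 on the minus strand, encodes the link from death receptors and caspase-8 to mitochondria. It was at 43.9, 59.6, 51.2, 53.6 and 32.0 CPM across NEO1+ libraries 1 to 5, and the NEO1- libraries, in the same order, stood at 68.6, 37.6, 35.2, 55.7 and 24.9 CPM. Both the highest and the lowest library were NEO1-. The log2 fold change was 0.11 (SE 0.28, 95% interval -0.48 to 0.71; edgeR adjusted p 0.998), and it was -0.04 without NEO1- library 5. Bcl2l13 on the opposite strand shares 17.7% of the exonic bases of Bid.

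Bad, at chr19:6941861-6951899 on the plus strand, encodes a BH3-only protein that survival kinases such as AKT and PIM hold inactive by phosphorylation. It was at 28.9, 36.9, 35.5, 31.6 and 30.05 CPM across NEO1+ libraries 1 to 5, and the NEO1- libraries, in the same order, stood at 37.6, 21.9, 14.5, 31.6 and 21.005 CPM. NEO1- libraries 2, 3 and 5 lay below every NEO1+ library, and NEO1- library 1 lay above all of them. The log2 fold change was 0.37 (SE 0.28, 95% interval -0.23 to 0.96; edgeR adjusted p 0.916), positive in 21 of 21 alternatives. Gpr137 on the opposite strand shares 20.5% of the exonic bases of Bad.

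**Figure D2:**
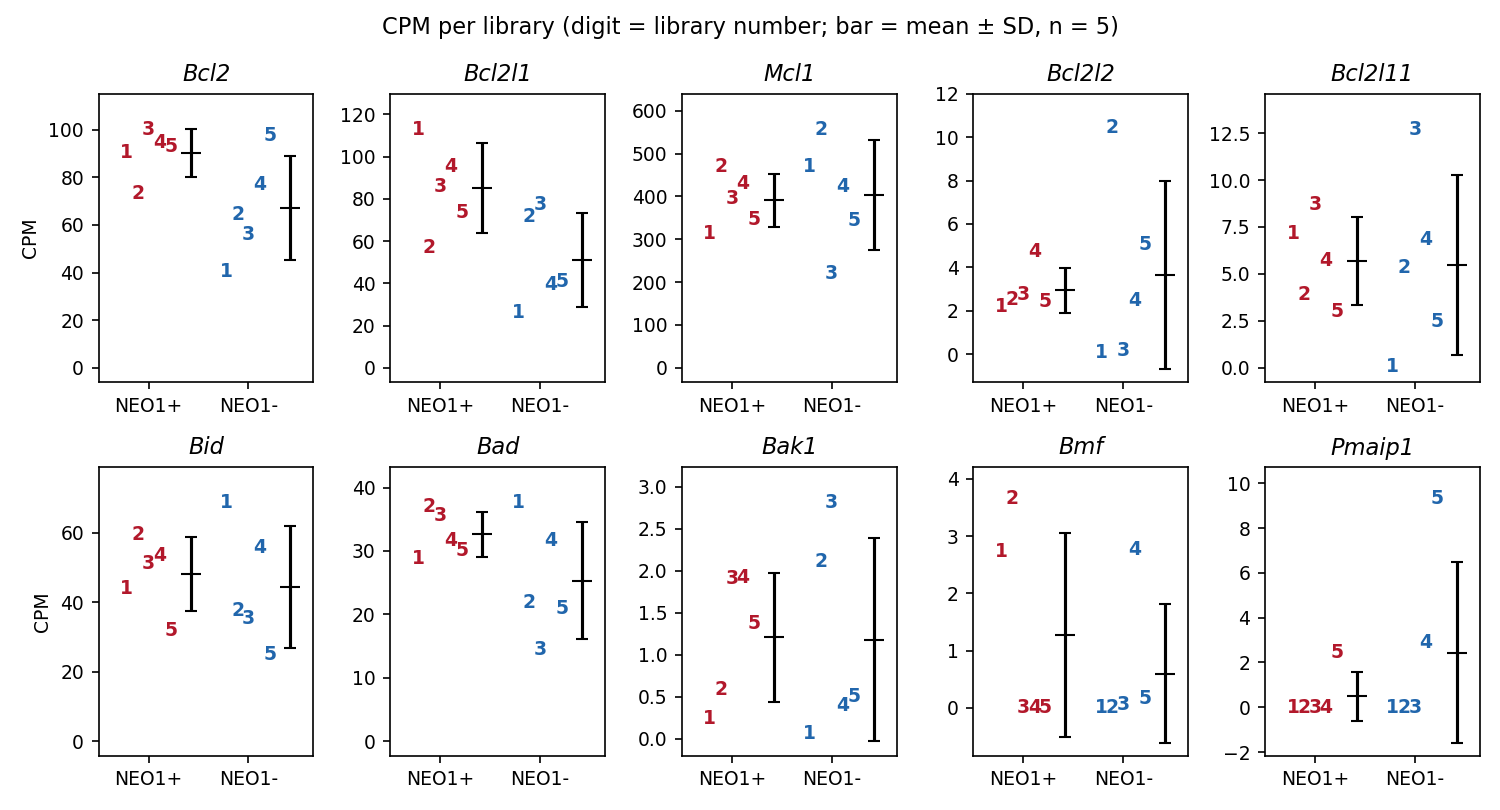
CPM of each member in every library, each panel with its own linear axis; digits are library numbers and the black bars give mean ± SD (n = 5). The ranges of NEO1+ and NEO1- overlap in all 10 panels, and the NEO1- libraries of Bcl2, Mcl1, Bad and Bid are spread more widely.

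Bcl2l11, at chr2:128126038-128162547 on the plus strand, encodes BIM, which all guardians bind and which comes in spliced forms of differing potency. It was at 7.16, 3.91, 8.72, 5.72 and 2.99 CPM across NEO1+ libraries 1 to 5, and the NEO1- libraries, in the same order, stood at 0.0637, 5.34, 12.7, 6.84 and 2.45 CPM. NEO1- library 3 was the highest, and NEO1- library 1 held 2 counts. The log2 fold change was 0.06 (SE 0.98, 95% interval -2.05 to 2.16; edgeR adjusted p 0.9997), and between -0.26 and 1.16 over the alternatives.

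Bak1, at chr17:27019810-27029009 on the minus strand, encodes BAK, the effector that sits in the outer membrane already in healthy cells. It was at 0.240, 0.588, 1.91, 1.92 and 1.36 CPM across NEO1+ libraries 1 to 5, and the NEO1- libraries, in the same order, stood at 0.0637, 2.11, 2.81, 0.395 and 0.496 CPM. These levels rested on 2 to 83 counts a library. The log2 fold change was 0.04 (SE 1.26, 95% interval -2.68 to 2.76; edgeR adjusted p 0.9997), and its sign turned in 6 of 21 alternatives. The interval thus held differences of several fold in either direction. Ggnbp1 on the opposite strand shares 7.35% of the exonic bases of Bak1.

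Bmf and Pmaip1 were detected in some libraries and not in others. Bmf, at chr2:118528757-118549687 on the minus strand, encodes a BH3-only protein tied to the cytoskeleton. It had 57 and 143 counts in NEO1+ libraries 1 and 2 and 0 in NEO1+ libraries 3 to 5, and 0, 0, 2, 91 and 5 counts in NEO1- libraries 1 to 5. Pmaip1, at chr18:66458533-66465565 on the plus strand, encodes NOXA, the partner that binds MCL1 and promotes its breakdown. It had 84 counts in NEO1+ library 5, 95 and 282 in NEO1- libraries 4 and 5, and 0 in the other 7. Levels where Pmaip1 was found were 2.44, 2.89 and 9.33 CPM, above the floor of 3 counts, which covers counting error only. The libraries numbered 5 in both groups were among those with counts. No fold change is given for these genes.

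For all 8 tested members the spread between libraries on the log2 scale was larger in NEO1- than in NEO1+. It was 0.48 against 0.17 for Bcl2, 0.54 against 0.15 for Bad, 0.51 against 0.23 for Mcl1 and 2.61 against 0.62 for Bcl2l11 (SD of log2 CPM, n = 5 each). The same was true of 78.3% of all genes tested, with a median SD of 0.40 in NEO1+ and 0.64 in NEO1- libraries. The members' median SDs were 0.36 and 0.61. NEO1- library 1, with the fewest genes detected, was the lowest of its group for Bcl2, Bcl2l1, Bcl2l2, Bcl2l11 and Bak1 and the highest for Bid and Bad.

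The other genes of the pathway were taken from 3 lists with 58 genes, of which 50 were tested and 0 passed in edgeR. An unadjusted p under 0.05 was reached by 6 of the 50, beside 6.60% of all genes tested. DESeq2 called 1 of the listed genes, beside 1.0% of all genes it assessed. In the rest of the BCL2 family 7 of 14 genes were tested, 0 had an unadjusted p under 0.05, and the median log2 fold change was -0.30. Bax, the second effector, was chosen for naming after its values were seen. It was at 46.3 ± 6.93 CPM in the NEO1+ group and 50.2 ± 17.5 CPM in the NEO1- group (SD, n = 5 each; log2 fold change -0.12, SE 0.24; edgeR adjusted p 0.998). Per length, Bax stood at 30.6 ± 8.08 CPM per kb over 10 libraries, above Bak1 in 10 of 10. Bbc3, which encodes the BH3-only protein PUMA, was at 8.52 ± 2.72 CPM per kb with a fitted log2 difference of 0.39 (SE 0.35; edgeR adjusted p 0.951). It was the tested gene of this list with a higher fitted level in NEO1+.

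Bcl2l12 (log2 fold change -0.30, SE 0.43; edgeR adjusted p 0.996) and Bcl2a1b, a guardian of the A1 group (-1.76, SE 1.99; 0.983), had lower fitted levels. The A1 genes are near-identical copies, so reads may be split between them. Bcl2a1a, Bcl2a1c and Hrk had 0 counts in 10 of 10 libraries, and Bik and Bcl2l10 had at most 28 and 19 counts in any library.

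Downstream of mitochondria, 19 of 19 genes of the caspase, apoptosome and inhibitor list were tested. Of these, 1 had an unadjusted edgeR p under 0.05, beside 6.60% of all genes tested. A higher fitted level was found for 8 and a lower one for 11, beside 6228 and 5975 of all genes tested. The median log2 fold change was -0.15. Birc2, which encodes the ubiquitin ligase cIAP1, was at 43.6 ± 11.5 CPM in the NEO1+ group and 62.9 ± 9.90 CPM in the NEO1- group (SD, n = 5 each). Its log2 fold change was -0.53 (SE 0.21; edgeR p 0.0241, adjusted 0.633). Diablo, whose product SMAC blocks the inhibitor proteins, differed by -0.36 on the log2 scale (SE 0.17; edgeR adjusted p 0.769). Xiap, a direct caspase inhibitor, had 0.39 (SE 0.21; edgeR adjusted p 0.823), and Htra2, a mitochondrial protease released with SMAC, had 0.29 (SE 0.25; edgeR adjusted p 0.940).

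Of 25 regulators of the family 24 were tested; 5 had an unadjusted p under 0.05 (6.60% of all genes tested did), of which 3 were fitted higher and 2 lower in NEO1+, and the median log2 fold change was -0.01. Tpt1 encodes TCTP, a protein reported to stabilise MCL1. It was at 455, 406, 423, 423 and 435 CPM across NEO1+ libraries 1 to 5, and the NEO1- libraries, in the same order, stood at 565, 674, 506, 546 and 507 CPM. The groups did not overlap, as was the case for 2.48% of all genes tested. Tpt1 was the 1 gene of the 3 lists that DESeq2 called, beside 1.0% of all genes it assessed. Its log2 fold change was -0.39 (SE 0.09, 95% interval -0.58 to -0.19) with an edgeR adjusted p of 0.266. DESeq2 gave 0.00322 for the same counts, and the adjusted p ran from 0.00112 to 0.9999 over the alternatives.

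Stat5b encodes a transcription factor downstream of cytokine receptors that is known to induce Bcl2l1. It was at 107 ± 12.9 CPM in the NEO1+ group and 79.8 ± 14.1 CPM in the NEO1- group (SD, n = 5 each). Its log2 fold change was 0.42 (SE 0.15, edgeR adjusted p 0.604). Stat5a, of the same list and named after its values were seen, was at 139 ± 21.1 and 144 ± 13.5 CPM. The log2 fold change of Stat5a was -0.06 (SE 0.13, edgeR adjusted p 0.998). A link of either gene to the Bcl2l1 level was not tested. Vdac1, an outer membrane channel, was at 150.02 ± 13.4 and 116 ± 20.1 CPM (0.37, SE 0.14; edgeR adjusted p 0.604). Mapk9, which encodes the stress kinase JNK2, was at 64.1 ± 11.8 and 90.1 ± 24.0 CPM (-0.49, SE 0.20; edgeR adjusted p 0.673). None of these genes passed in edgeR.

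**Figure D3:**
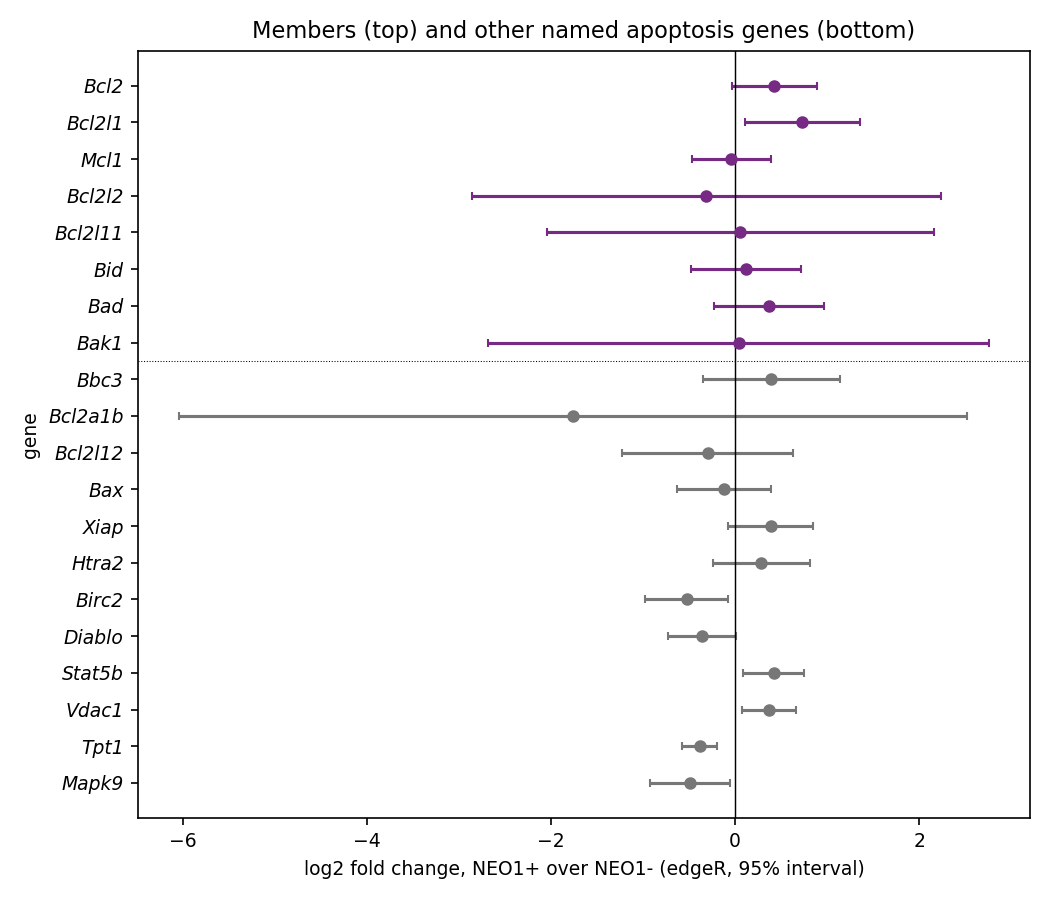
Log2 fold change of NEO1+ over NEO1- with its 95% interval from edgeR for the 8 tested members (top, purple) and 12 other named genes of the pathway (bottom, grey). Intervals of Bcl2l2, Bcl2l11 and Bak1 span over 4 log2 units while that of Mcl1 spans -0.47 to 0.39, and no gene passed the adjusted threshold.

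**Figure D4:**
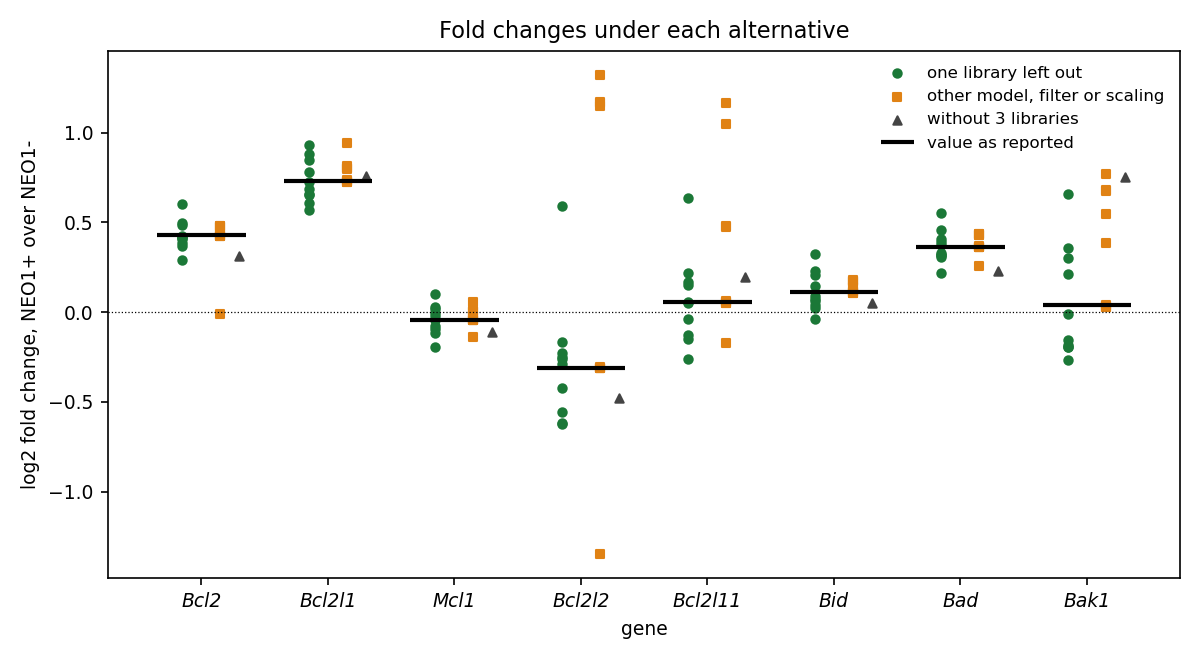
Log2 fold change of NEO1+ over NEO1- of each tested member as reported (black bar), with 1 library left out (circles), under another model, filter or scaling (squares) and without the 3 libraries rich in red cell markers (triangle). Bcl2l1 and Bad stay above 0 throughout, and Bcl2l2 ranges from -1.35 to 1.32.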

How the data were processed

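The authors deposited raw counts per gene symbol and library; the submitters' processing notes list bcl2fastq 2.18, STAR 2.4, DESeq2 1.22.2 and the mm10 build. The counting tool, annotation and use of strand are not given in the sources used here. The deposited log2 values equalled log2 of the count over 1 constant per library, plus 1 (largest residual 5.15e-14), and served for 1 alternative. Groups came from the sample titles. No pair of libraries within a group was alike within sampling noise (chi-square per degree of freedom at least 83.1 in 20 pairs).

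Genes were tested in R 4.3.3 with edgeR 4.0.16 (filterByExpr, TMM, robust quasi-likelihood test of group, two-sided, Benjamini-Hochberg over 12203 genes, threshold 0.05). The fit was also run on simulated counts, with less spread than these data and changes larger than the members' fitted ones. That run does not show how the test performs at the members' fold changes. SE was derived as the size of the log2 fold change divided by the root of the F statistic. Alternatives used DESeq2 1.42.0 and limma 3.58.1. Values per library on the log2 scale used a prior count of 2. Positions and lengths came from GENCODE M21, of the same build.

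Members and lists were chosen with earlier results of these data known. Besides the members, up to 2 genes per direction of smallest p in each list are named. Bax and Stat5a were named after their values were seen.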

Additional observations from a re-analysis of the deposited data

Results flagged for a closer look

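In 20 groups of 5 values (10 members in both groups, log2 CPM), 2 held a library farther from its nearest neighbour than 0.71 of the group's range, where 1 is expected by chance. Bcl2l2 was at 2.27 log2 CPM in NEO1+ library 4 (156 counts), against 1.18 to 1.49 in the other NEO1+ libraries. Pmaip1 was at 1.32 log2 CPM in NEO1+ library 5 (84 counts), while the other 4 NEO1+ libraries had 0 counts, which stand at -3.98 on this scale. With 4 tied values the gap is the full range whatever the count in library 5. The number expected by chance does not cover such a group.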

How the results depend on the processing

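Across 21 alternatives, 20 of them planned, the count of members past the threshold remained 0. The count over all genes, 0 in edgeR as reported, was 146 with DESeq2 (742 where the replicate block was added), 2 without the low-count filter, 1 with limma-trend on the deposited values, 2 with limma-voom and 0 to 1 with 1 library left out (1 without NEO1- library 1). In the other apoptosis lists it was 1 with DESeq2 and 3 once the block was added to it, among them Vdac1 (adjusted p 0.0366, against 0.604 in edgeR) and Tpt1 (0.00112). Over all genes tested, deviations of same-numbered libraries correlated at 0.00 to 0.04. Of 5 NEO1+ libraries, 3 correlated best with their own number. The labels do not say whether equal numbers mark pairs, and correlations this weak in 5 libraries cannot decide it. The replicate block in edgeR called 0 genes (874 at an unadjusted p under 0.05).

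Signs that turned belonged to uncalled fold changes. The median log2 fold change of all genes, 0.01 as reported, was 0.10 to 0.13 with the replicate block, in edgeR and DESeq2, and with both limma fits. Mcl1 turned to 0.0074 with the replicate block, 0.0026 with DESeq2 and the block, 0.0051 with limma-trend, 0.055 with limma-voom and lay between -0.20 and 0.10 with 1 library left out. Bcl2l2 turned to 1.17 with the block in both tools (1.169 and 1.168), 1.149 with limma-trend, 1.32 with limma-voom, and lay between -0.63 and 0.59 with 1 left out. With genes detected as a covariate, Bcl2 was at -0.012, Bcl2l11 at -0.17, Bbc3 at -0.060 and Bax at 0.0043. With 1 library left out, Bcl2l11 lay between -0.26 and 0.63, Bid between -0.036 and 0.33, Bak1 between -0.27 and 0.66 and Bax between -0.23 and 0.10. Without the 3 libraries rich in red cell markers, an alternative chosen after seeing the data, Bax was at 0.039. The causes were not tested. Bak1, Bcl2l11, Bcl2l2, Bmf and Pmaip1 had at most 375 counts in any library; the biological coefficient of variation in edgeR was 1.02 to 1.18 for the first 3 and 0.25 to 0.34 for the other tested members. The longest transcript as length moved Bcl2l1, Bid, Bad and Bcl2 to 26.5, 19.1, 18.9 and 10.9 CPM per kb.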
